A study of Homo sapiens with 12 samples.

Results

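Homologous recombination mends DNA double-strand breaks by copying an intact sister strand. The Fanconi anaemia pathway unhooks crosslinks, which tie both strands of the helix together and block replication. The genes examined here are 48 genes of these pathways. They were given as a list of gene symbols and matched by symbol to the 63241 genes of each deposited count table. All 48 were found, and all passed the filter on low counts that left 19373 genes to test. Their lowest raw count in any library was that of FANCB, with 21 counts. The list was not drawn from a measured value of the libraries, but it was chosen with earlier results of these data known.

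RNA was sequenced from MDA-PCa-2b cells, an established line of human prostate cancer, in 12 libraries that form 4 groups of 3. KD1 and KD2 are labelled as the first and the second knockdown of DHODH, KDR as the rescue of the second knockdown, and NT is a label that is not spelled out. DHODH (dihydroorotate dehydrogenase) is a mitochondrial enzyme that cells need to make pyrimidines. The labels give no construct, clone, dose or time for any group, and the growth protocol also mentions MDA-PCa-2a, so the groups are called here by their labels alone. Nothing in the labels tells whether replicates are separate cultures, so the p-values measure only the spread between these libraries, which may be technical.

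Break repair by recombination runs in steps. The MRE11, RAD50 and NBN proteins find the break, and ATM and ATR relay the alarm through CHEK2 and CHEK1. RBBP8 and EXO1 trim the ends, and BRCA1, PALB2 and BRCA2 load the recombinase that pairs the trimmed end with its template. Helicases and nucleases then take the joined molecules apart. At a crosslink, the Fanconi core complex, with UBE2T, attaches ubiquitin to the FANCD2 and FANCI pair, and USP1 removes it. Many of these genes are expressed mainly by cells that copy their DNA. MKI67, a marker of cycling cells, and MCM2, a subunit of the replicative helicase, are the genes that the 48 are compared with.

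Total counts ran from 23786288 to 38240369 per library. The spread between replicates, as a biological coefficient of variation, was 6.62% in KD1, 7.17% in KD2, 5.53% in KDR and 15.7% in NT, and 8.56% in NT without replicate 2. NT replicate 2 stood apart from the others: it was the lowest of the 3 NT libraries for 26 of the 48 genes and the highest for 9. Levels are given as CPM, counts per 1e6 counts after scaling by trimmed mean of M values (TMM). DHODH (chr16:72008588-72027664) had 11.0, 10.4 and 9.63 CPM in KD1, 11.4, 13.0 and 14.9 CPM in KD2 and 18.9, 19.2 and 17.5 CPM in KDR, against 9.19, 13.4 and 8.95 CPM in NT. DHODH RNA was not called lower in KD1 or KD2 than in NT, with log2 fold changes of -0.028 (95% interval -0.33 to 0.27, adjusted p = 0.97) in KD1 and 0.31 (95% interval 0.015 to 0.60, adjusted p = 0.097) in KD2. It was called higher in KDR than in KD2 (0.51 ± 0.14 SE, adjusted p = 0.0064), a call that ended without KD2 replicate 1 (0.41, adjusted p = 0.052). Without NT replicate 2, DHODH was called higher in KD2 than in NT, by 0.52 on the log2 scale (adjusted p = 0.0014). All directions below are those of labelled groups, in which no loss of DHODH RNA was measured. Of 11 prostate luminal markers, 10 were called lower in KD2 than in NT and 0 higher, where 18.2% of all genes tested were lower and 17.8% higher. The summed level of the 11 ran from 18592 to 18980 CPM in KD1, 11701 to 12061 CPM in KD2 and 18694 to 19111 CPM in KDR, against 18471 to 21863 CPM in NT. The summed level of 6 fibroblast markers was 1.84 to 5.12 CPM over all libraries, that of 6 immune markers 0.0284 to 0.859 CPM and that of 5 endothelial markers 0.0967 to 0.937 CPM. CD3E, CD68 and CDH5 were at 0 in every library. The part of the luminal markers in the results below was not tested.

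A gene was called higher or lower where its Benjamini-Hochberg adjusted p was under 0.05 over all 19373 genes, in edgeR's quasi-likelihood test of 1 model over all 12 libraries. The recombination and Fanconi genes differed most often between KD2 and the groups KD1 and NT. Log2 fold changes are given ± SE. Against NT, 32 of the 48 genes were higher in KD2 and 0 were lower, where 17.8% of all genes tested were called higher and 18.2% lower. The median log2 fold change was 0.68 over the 48 genes and -0.0099 over all genes. The libraries of KD2 lay all above those of NT for 33 of the 48 genes, beside 21.5% of all genes. At least a 2-fold rise was found for 19 of the 32. In KDR against KD2, 16 of the 48 genes were lower and 1 was higher (median -0.23), where 17.1% of all genes were lower and 15.3% higher. The KDR libraries lay all below those of KD2 for 23 of the 48, beside 25.4% of all genes. In a fit of only the KDR and KD2 libraries, 24 were lower and 3 higher, and 44.3% of all genes were called, against 32.4% with all libraries. CHEK2, ATR, RAD51AP1, BLM, EME1, FANCA and USP1 were among those then called lower, and FANCL and XRCC3 were called higher. Against NT, 26 were still higher in KDR and 1 was lower (median 0.32), where 13% of all genes were higher and 14.5% lower. Without NT replicate 2, 25 were higher in KDR than in NT and 4 were lower, RAD51B (-0.60), RMI1 (-0.36), NBN (-0.30) and FANCF (-0.26), where 30.8% of all genes were called. That fit called 33 members higher and 3 lower in KD2 against NT, where 37.8% of all genes were called. Between the knockdowns, 29 of the 48 were higher in KD2 than in KD1 and 2 were lower (median 0.75), where 17.9% of all genes were higher and 17.5% lower. In KD1 against NT, edgeR called 0 of the 48 genes, as it did 0% of all genes. At an unadjusted p under 0.05 it found 5 of the 48 genes, beside 6.12% of all genes, and DESeq2 also called 0 of the 48. In RNA from whole cultures, more cells that express a gene and more RNA per cell cannot be told apart.

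**Figure D1:**
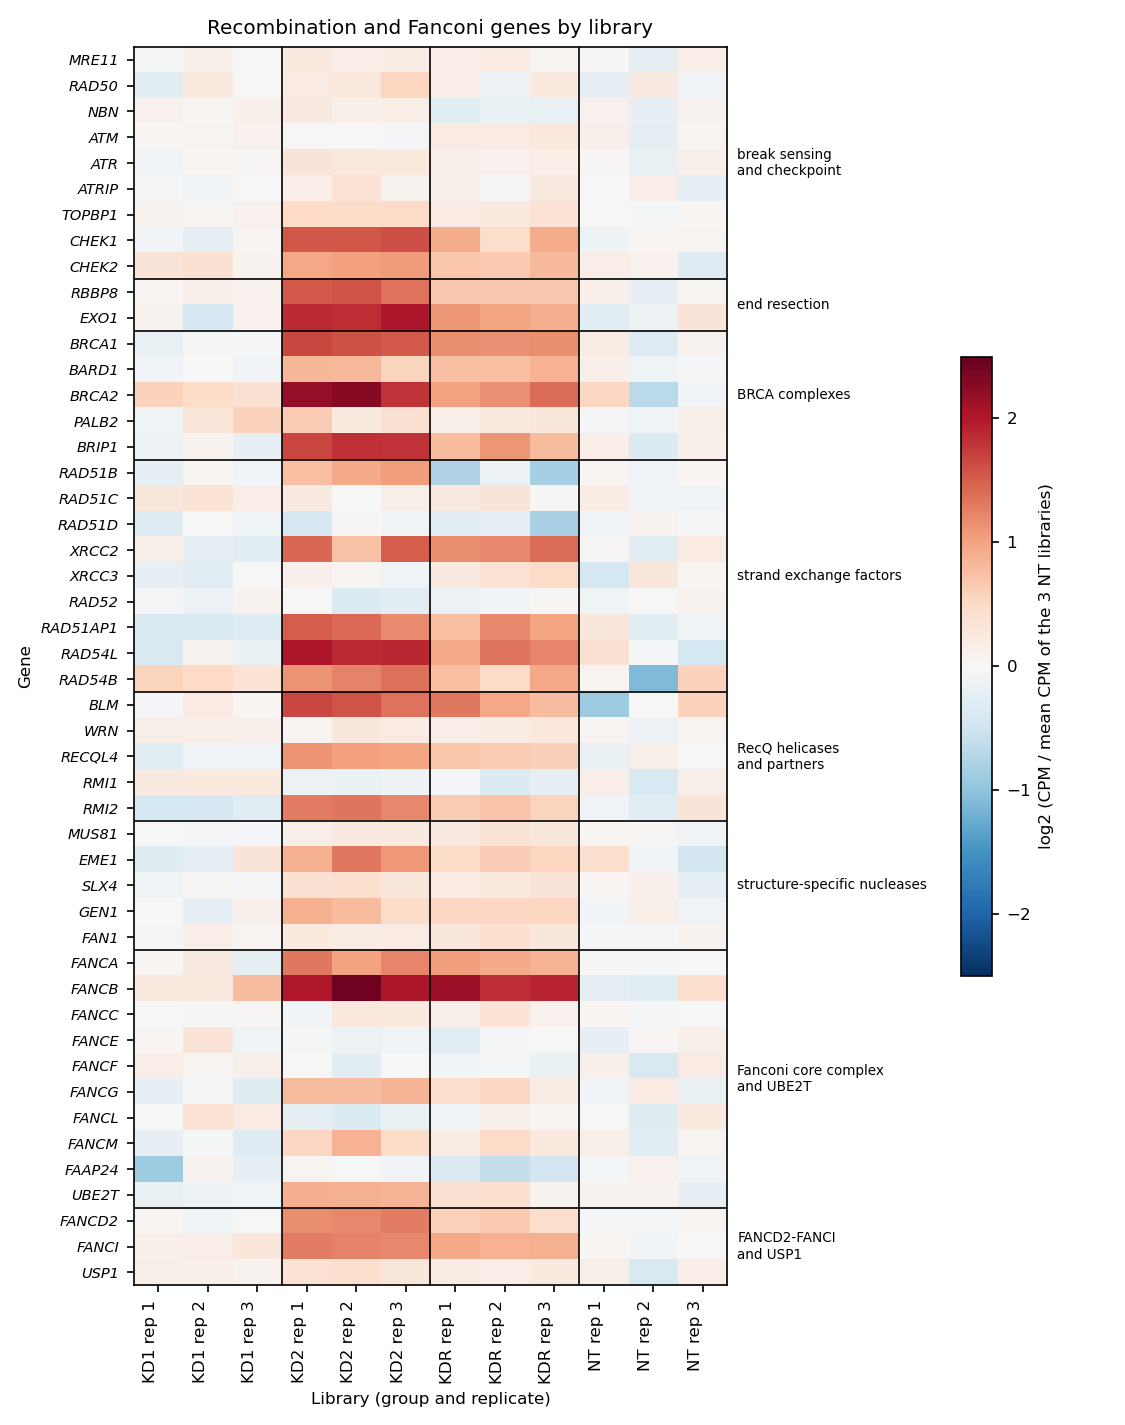
Level of each of the 48 genes in each of the 12 libraries, as the log2 of its CPM over the gene's mean CPM in NT, with libraries in columns (KD1, KD2, KDR, NT) and genes in rows by role. In the mean, the KD2 columns stand above the NT columns for the 32 genes called higher there, of which FANCB, at 2.17, and BRCA2, at 2.10 on the log2 scale, differ most, and 0 genes were called in KD1 against NT.

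Among the genes of break sensing and the checkpoint, the effector kinases rose and the sensors did not pass the test. Of 9 such genes, 4 were higher in KD2 than in NT, 0 were lower and the median log2 fold change was 0.29. Of all genes tested, 17.8% were higher and 18.2% lower, shares that also stand beside the role lists below. CHEK1 (chr11:125625163-125676255) is the kinase that ATR activates to hold the cell cycle. It had 7.50, 6.65 and 8.20 CPM in KD1, 23.0, 23.1 and 23.9 CPM in KD2 and 14.9, 10.6 and 14.9 CPM in KDR, against 7.21, 8.10 and 8.23 CPM in NT. Its KD2 libraries were all above 22 CPM and its NT libraries all under 9 CPM, with no overlap. The log2 fold change was 1.57 ± 0.13 (SE, adjusted p = 1.8e-09) for KD2 minus NT, -0.79 ± 0.13 for KDR minus KD2 and 0.78 ± 0.13 for KDR minus NT, all 3 called. CHEK2 (chr22:28687743-28742422) is the kinase downstream of ATM. It had 8.24, 8.57 and 6.92 CPM in KD1, 12.9, 13.3 and 13.7 CPM in KD2 and 10.6, 10.3 and 11.5 CPM in KDR, against 7.33, 7.07 and 5.26 CPM in NT. CHEK2 rose by 1.02 ± 0.14 (SE, adjusted p = 3.0e-06) in KD2 over NT. In KDR, CHEK2 was still higher than in NT (0.72 ± 0.14 SE, adjusted p = 0.00038), while its difference from KD2 was not called (-0.30, 95% interval -0.58 to -0.024, adjusted p = 0.090).

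TOPBP1 (chr3:133598175-133662380) switches ATR on. It had 57.4, 56.4 and 58.1 CPM in KD1, 75.9, 74.6 and 75.7 CPM in KD2 and 62.5, 64.3 and 69.1 CPM in KDR, against 53.7, 52.7 and 55.6 CPM in NT. ATR (chr3:142449007-142578733) is the kinase that answers stalled replication. It had 51.6, 55.9 and 55.4 CPM in KD1, 67.7, 65.4 and 65.6 CPM in KD2 and 59.9, 58.5 and 60.8 CPM in KDR, against 55.7, 47.7 and 59.6 CPM in NT. Both rose by less than 0.5 on the log2 scale in KD2 over NT, TOPBP1 by 0.48 ± 0.065 (SE, adjusted p = 2.7e-06) and ATR by 0.29 ± 0.076 (SE, adjusted p = 0.0045). TOPBP1 was lower in KDR than in KD2 (-0.21 ± 0.064 SE, adjusted p = 0.015), a call that ended without KDR replicate 1 (-0.18, adjusted p = 0.087) or KDR replicate 2 (-0.20, adjusted p = 0.058). ATM (chr11:108222823-108369102) is the kinase that answers broken ends. It had 83.9, 85.3 and 87.0 CPM in KD1, 81.6, 80.8 and 78.9 CPM in KD2 and 93.1, 93.8 and 97.9 CPM in KDR, against 88.5, 69.1 and 85.4 CPM in NT. It was chosen after its values were seen, as the 1 gene called higher in KDR than in KD2. The KD2 libraries of ATM lay within the range of NT, whose replicate 2 was low. The KDR libraries lay above both, by 0.24 ± 0.075 (SE, adjusted p = 0.017) over KD2 and 0.23 ± 0.075 (SE, adjusted p = 0.025) over NT. The call over KD2 ended without KD2 replicate 2 (0.24, adjusted p = 0.051), KD2 replicate 3 (0.22, adjusted p = 0.067) or KDR replicate 3 (0.21, adjusted p = 0.078). The call over NT ended without NT replicate 2 (0.12, adjusted p = 0.097) or any 1 of the KDR libraries. In a fit of only those groups it ended too (0.23, adjusted p = 0.097).

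The sensor genes MRE11, RAD50 and NBN were not called in KD2 against NT, with log2 fold changes of 0.20, 0.34 and 0.17. Neither was ATRIP, the partner of ATR, at 0.21. Without NT replicate 1, NBN was called, at 0.22 (adjusted p = 0.044), and without NT replicate 2 it was not (0.069, adjusted p = 0.41). Without NT replicate 2, RAD50 (0.46, adjusted p = 0.024) and ATRIP (0.30, adjusted p = 0.023) were called higher. NBN (chr8:89924515-90003228) is the subunit that recruits ATM. It had 70.1, 67.0 and 70.3 CPM in KD1, 75.8, 70.4 and 71.7 CPM in KD2 and 54.3, 57.8 and 57.1 CPM in KDR, against 69.5, 55.9 and 69.0 CPM in NT. Its KDR libraries lay below all of the KD2 libraries, with KDR minus KD2 at -0.37 ± 0.077 (SE, adjusted p = 0.00072). KDR minus NT was -0.20 (95% interval -0.36 to -0.040, adjusted p = 0.059), and without NT replicate 2 it was called, at -0.30 (adjusted p = 0.00012). RAD50 shares 76.9% of its exon bases with another annotated gene, and the counting did not use strand, so its counts are uncertain.

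Both end resection genes followed the same order, KD2 above KDR above NT. RBBP8 (chr18:22798261-23026488) encodes CtIP and starts resection. It had 21.9, 22.7 and 22.4 CPM in KD1, 60.0, 61.6 and 53.6 CPM in KD2 and 33.2, 33.1 and 33.2 CPM in KDR, against 22.7, 18.1 and 21.7 CPM in NT. EXO1 (chr1:241847967-241895148) is the exonuclease that extends resection. It had 3.86, 2.70 and 3.96 CPM in KD1, 13.3, 13.1 and 14.9 CPM in KD2 and 7.90, 7.19 and 6.84 CPM in KDR, against 3.04, 3.34 and 4.57 CPM in NT. RBBP8 differed by 1.49 ± 0.089 (SE, adjusted p = 5.8e-12) in KD2 over NT, -0.82 ± 0.086 (SE, adjusted p = 1.1e-07) in KDR over KD2 and 0.67 ± 0.089 (SE, adjusted p = 4.4e-06) in KDR over NT. For EXO1 these differences were 1.92 ± 0.17, -0.91 ± 0.16 and 1.01 ± 0.17, with adjusted p of 5.6e-09, 0.00012 and 0.00011. The 3 KDR libraries lay between those of KD2 and NT for both genes.

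All 5 genes of the BRCA complexes were higher in KD2 than in NT, with a median log2 fold change of 1.59. BRCA1 (chr17:43044295-43170245) is the ubiquitin ligase that commits a break to recombination. It had 11.8, 13.1 and 13.0 CPM in KD1, 42.5, 40.3 and 38.7 CPM in KD2 and 30.0, 29.6 and 30.1 CPM in KDR, against 15.3, 10.7 and 14.3 CPM in NT. BRCA2 (chr13:32315086-32400268) loads the recombinase. It had 8.31, 7.74 and 7.31 CPM in KD1, 25.6, 27.1 and 19.6 CPM in KD2 and 11.3, 12.4 and 14.8 CPM in KDR, against 7.98, 3.50 and 5.33 CPM in NT. NT replicate 2 was the lowest library of BRCA2. BRIP1 (chr17:61679139-61863559) is the helicase FANCJ that binds BRCA1. It had 3.79, 4.41 and 3.59 CPM in KD1, 13.1, 14.6 and 14.4 CPM in KD2 and 7.02, 8.83 and 7.17 CPM in KDR, against 4.63, 3.27 and 4.50 CPM in NT. The libraries of KD2 and NT did not overlap for any of these 3 genes. The log2 fold changes of KD2 minus NT were 1.59 ± 0.11 (SE, adjusted p = 5.4e-11) for BRCA1, 2.10 ± 0.19 (SE, adjusted p = 9.5e-09) for BRCA2 and 1.76 ± 0.16 (SE, adjusted p = 5.9e-09) for BRIP1.

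KDR stood below KD2 for these 3 genes and not for BARD1. KDR minus KD2 was -0.44 ± 0.10 (SE, adjusted p = 0.0019) for BRCA1, -0.91 ± 0.18 (SE, adjusted p = 0.00039) for BRCA2 and -0.87 ± 0.15 (SE, adjusted p = 8.7e-05) for BRIP1. KDR minus NT was 1.16 ± 0.11, 1.19 ± 0.20 and 0.89 ± 0.16, called for all 3. BARD1 (chr2:214725646-214809683) is the obligate partner of BRCA1. It had 23.3, 24.5 and 23.3 CPM in KD1, 43.3, 42.8 and 35.9 CPM in KD2 and 41.0, 40.7 and 44.7 CPM in KDR, against 26.6, 22.5 and 23.8 CPM in NT. It was higher than NT in KD2 (0.74 ± 0.090 SE, adjusted p = 6.7e-07) and in KDR (0.79 ± 0.090 SE, adjusted p = 4.9e-07). Its KDR and KD2 libraries overlapped, with a difference of 0.050 (95% interval -0.13 to 0.23, adjusted p = 0.71). PALB2, the bridge between BRCA1 and BRCA2, stood at 8.71 ± 1.97 CPM in KD1, 9.60 ± 1.36 CPM in KD2 and 8.36 ± 0.386 CPM in KDR, against 7.16 ± 0.647 CPM in NT (SD, n = 3 each). Its call in KD2 over NT (0.43 ± 0.16 SE, adjusted p = 0.038) ended without NT replicate 1 or 2 (0.41 and 0.38, adjusted p = 0.089 and 0.076) and without KD2 replicate 1 or 3 (0.31 and 0.46, adjusted p = 0.21 and 0.059). In a fit of only those groups it ended too (0.42, adjusted p = 0.052).

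**Figure D2:**
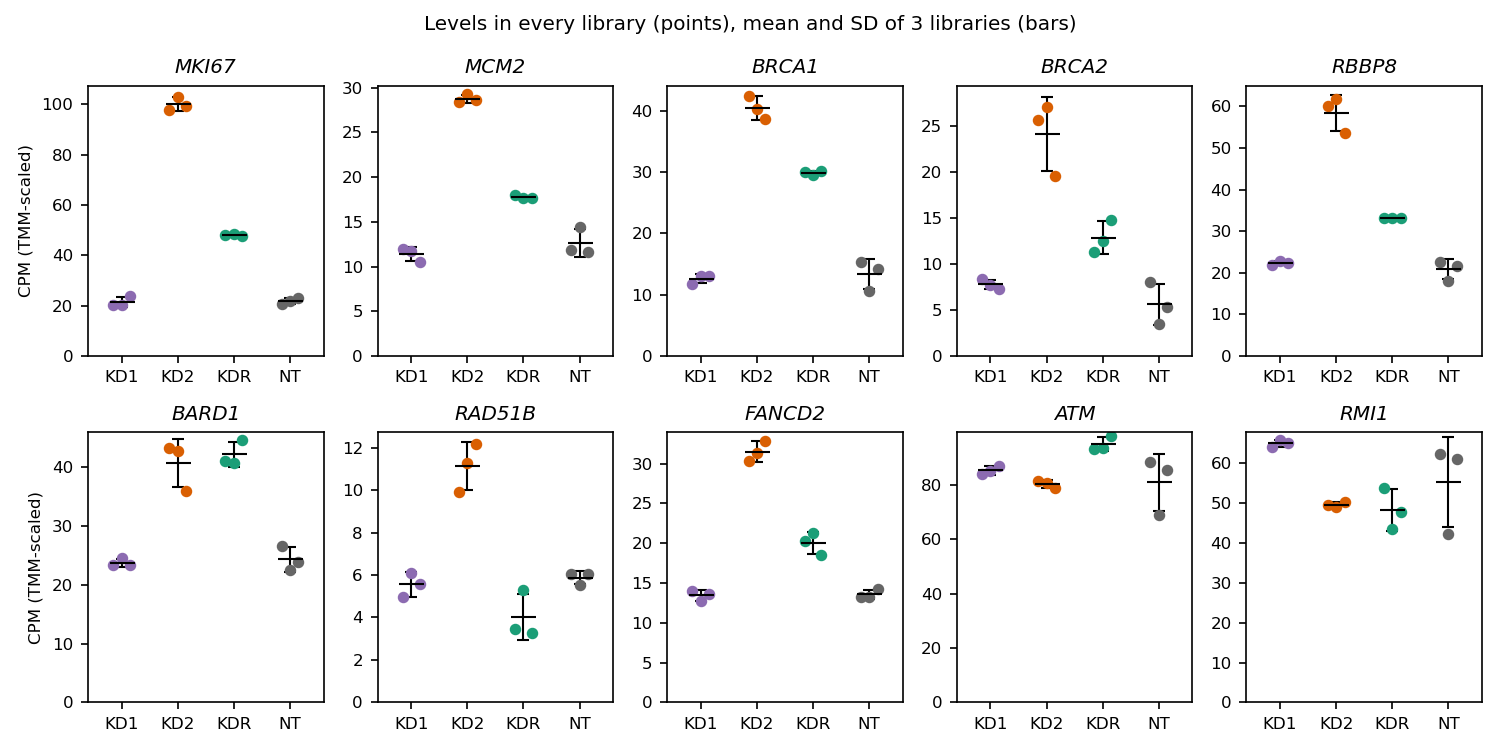
CPM of MKI67, MCM2 and 8 of the 48 genes in every library (points) with the mean and SD of the 3 libraries of a group (bars), on axes that start at 0, with KD1, KD2, KDR and NT from left to right. BRCA1, BRCA2, RBBP8 and FANCD2 step down from KD2 to KDR to NT, BARD1 overlaps between KDR and KD2, RAD51B is lowest in KDR, and NT replicate 2 is the low NT point of ATM and RMI1.

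The strand exchange factors split into a group that rose and a group that did not pass the test. Of 9 genes, 5 were higher in KD2 than in NT, 0 were lower, and the median log2 fold change was 0.92. RAD54L (chr1:46246461-46278480) is a motor protein that remodels the DNA pairing. It had 2.12, 2.91 and 2.47 CPM in KD1, 11.2, 10.0 and 10.2 CPM in KD2 and 5.32, 6.96 and 6.44 CPM in KDR, against 3.57, 2.68 and 2.02 CPM in NT. RAD51AP1 (chr12:4538798-4560047) stimulates strand pairing. It had 3.43, 3.41 and 3.54 CPM in KD1, 12.8, 11.9 and 10.1 CPM in KD2 and 7.46, 10.2 and 8.81 CPM in KDR, against 5.44, 3.64 and 4.27 CPM in NT. The KD2 libraries of both lay above 10 CPM or at it and the NT libraries under 6 CPM. KD2 minus NT was 1.92 ± 0.19 (SE, adjusted p = 3.6e-08) for RAD54L and 1.38 ± 0.17 (SE, adjusted p = 5.5e-07) for RAD51AP1. RAD54L was lower in KDR than in KD2 (-0.75 ± 0.18 SE, adjusted p = 0.0024), and for RAD51AP1 that difference was not called (-0.40, 95% interval -0.73 to -0.072, adjusted p = 0.057). It was called in 4 of the fits that left out 1 library, at -0.40 without NT replicate 1, -0.41 without NT replicate 2, -0.49 without KD2 replicate 3 and -0.52 without KDR replicate 2.

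XRCC2 (chr7:152644776-152676193) is a subunit of the paralogue complex that also holds RAD51B, RAD51C and RAD51D. It had 4.21, 3.29 and 3.20 CPM in KD1, 10.3, 6.39 and 11.0 CPM in KD2 and 8.51, 8.74 and 10.1 CPM in KDR, against 3.88, 3.21 and 4.38 CPM in NT. Its KDR and KD2 libraries overlapped (-0.018, 95% interval -0.40 to 0.36, adjusted p = 0.96). Both groups stood above NT, by 1.25 ± 0.19 (SE, adjusted p = 2.9e-05) in KDR and 1.27 ± 0.19 (SE, adjusted p = 1.5e-05) in KD2. RAD51B (chr14:67819779-68730218) is another subunit of that complex. It had 4.95, 6.11 and 5.60 CPM in KD1, 9.91, 11.3 and 12.1 CPM in KD2 and 3.48, 5.29 and 3.29 CPM in KDR, against 6.06, 5.52 and 6.06 CPM in NT. It was the 1 gene of the 48 that was higher in KD2 than in NT (0.92 ± 0.17 SE, adjusted p = 0.00014) and lower in KDR than in NT (-0.55 ± 0.18 SE, adjusted p = 0.023). KDR minus KD2 was -1.46 ± 0.17 (SE, adjusted p = 5.8e-07), the lowest value of the 48 genes in that comparison. The call of KDR under NT ended without KDR replicate 1 (-0.45, adjusted p = 0.12), KDR replicate 3 (-0.43, adjusted p = 0.12) or NT replicate 1 (-0.52, adjusted p = 0.056). In a fit of only those groups it ended too (-0.55, adjusted p = 0.067).

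RAD54B, a relative of RAD54L, had 2.36 ± 0.181 CPM in KD1, 4.09 ± 0.361 CPM in KD2 and 2.88 ± 0.490 CPM in KDR, against 1.72 ± 0.883 CPM in NT (SD, n = 3 each). It rose by 1.26 ± 0.29 (SE, adjusted p = 0.0014) in KD2 over NT, and 66.0% of its exon bases are shared with FSBP, so its counts are uncertain. RAD51C, RAD51D, XRCC3 and RAD52, an annealing protein, were not called in KD2 against NT, with log2 fold changes of 0.13, -0.14, 0.037 and -0.19. XRCC3 was called higher in KDR than in NT (0.36 ± 0.13 SE, adjusted p = 0.046), where its libraries overlapped. That call ended without any 1 library other than NT replicate 2 (0.19, adjusted p = 0.27 without NT replicate 1). In a fit of only those groups it ended too (0.36, adjusted p = 0.10). Of the exon bases of XRCC3, 76.7% are shared with KLC1.

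The helicases that dissolve joined molecules also split. Of the RecQ helicases and their partners, 3 of 5 were higher in KD2 than in NT, 0 were lower, and the median was 1.05. BLM (chr15:90717346-90816166) is the Bloom syndrome helicase. It had 1.84, 2.16 and 1.95 CPM in KD1, 5.93, 5.59 and 4.80 CPM in KD2 and 4.65, 3.68 and 3.22 CPM in KDR, against 0.994, 1.85 and 2.78 CPM in NT. RECQL4 (chr8:144511288-144517845) is a helicase that also acts at replication origins. It had 24.2, 27.7 and 27.5 CPM in KD1, 63.8, 59.2 and 57.4 CPM in KD2 and 47.1, 45.4 and 44.0 CPM in KDR, against 25.6, 32.4 and 29.5 CPM in NT. RMI2 (chr16:11249619-11381662) is a subunit of the BLM complex. It had 3.82, 3.83 and 4.22 CPM in KD1, 12.5, 13.0 and 11.9 CPM in KD2 and 7.98, 8.48 and 7.57 CPM in KDR, against 4.81, 4.23 and 6.40 CPM in NT. In KD2 over NT the log2 fold changes were 1.55 ± 0.27 (SE, adjusted p = 6.7e-05) for BLM, 1.05 ± 0.088 (SE, adjusted p = 2.0e-09) for RECQL4 and 1.28 ± 0.15 (SE, adjusted p = 4.1e-07) for RMI2, without overlap of the libraries.

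RECQL4 and RMI2 were lower in KDR than in KD2, at -0.40 ± 0.086 and -0.64 ± 0.15 on the log2 scale (adjusted p = 0.00080 and 0.0015), and BLM was not called there (-0.50, 95% interval -1.02 to 0.024, adjusted p = 0.14). WRN (chr8:31033788-31176138) is the Werner syndrome helicase. It had 18.1, 18.1 and 17.9 CPM in KD1, 17.2, 20.1 and 19.0 CPM in KD2 and 18.5, 18.6 and 19.7 CPM in KDR, against 17.3, 14.9 and 17.1 CPM in NT. It was not called in KD2 against NT (0.19, 95% interval -0.018 to 0.39, adjusted p = 0.15). RMI1 (chr9:83980798-84004074) is the other small subunit of the BLM complex. It had 64.2, 65.8 and 65.1 CPM in KD1, 49.6, 48.9 and 50.4 CPM in KD2 and 53.9, 43.4 and 47.8 CPM in KDR, against 62.4, 42.2 and 61.2 CPM in NT. NT replicate 2 lay far under the other NT libraries of RMI1, and KD2 minus NT was -0.15 (95% interval -0.38 to 0.069, adjusted p = 0.29) with it and -0.32 (adjusted p = 0.00034) without it. Against KD1, RMI1 was lower in KD2 with all libraries in the fit (-0.39 ± 0.11 SE, adjusted p = 0.0060).

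All 5 structure-specific nuclease genes were higher in KD2 than in NT, with a median of 0.36. EME1 (chr17:50373220-50381483) is the partner of the MUS81 nuclease. It had 1.84, 1.95 and 2.81 CPM in KD1, 4.17, 5.62 and 4.80 CPM in KD2 and 3.10, 3.45 and 3.25 CPM in KDR, against 2.98, 2.15 and 1.64 CPM in NT. GEN1 (chr2:17753858-17788946) is a resolvase of Holliday junctions. It had 13.3, 11.4 and 14.5 CPM in KD1, 24.6, 23.0 and 18.4 CPM in KD2 and 19.0, 19.1 and 19.3 CPM in KDR, against 12.6, 14.8 and 12.5 CPM in NT. SLX4 (chr16:3581181-3611606) is the scaffold that holds several nucleases. It had 23.7, 26.0 and 25.1 CPM in KD1, 33.3, 33.6 and 30.9 CPM in KD2 and 29.4, 30.0 and 31.8 CPM in KDR, against 26.5, 27.9 and 21.9 CPM in NT. The KD2 libraries lay above those of NT for all 3. KD2 minus NT was 1.10 ± 0.24 (SE, adjusted p = 0.00079) for EME1, 0.73 ± 0.12 (SE, adjusted p = 3.6e-05) for GEN1 and 0.36 ± 0.092 (SE, adjusted p = 0.0036) for SLX4.

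FAN1 (chr15:30890559-30943108) is a nuclease recruited by ubiquitinated FANCD2. It had 76.9, 87.7 and 81.9 CPM in KD1, 93.5, 89.3 and 90.6 CPM in KD2 and 95.5, 106 and 95.4 CPM in KDR, against 75.8, 76.6 and 83.6 CPM in NT. Its rise in KD2 over NT was small (0.21 ± 0.068 SE, adjusted p = 0.016). The call ended without NT replicate 1 (0.19, adjusted p = 0.059) or KD2 replicate 1 (0.20, adjusted p = 0.067) and in a fit of only those groups (0.21, adjusted p = 0.057). MUS81, the nuclease that EME1 joins, rose by 0.20 ± 0.070 (SE, adjusted p = 0.029), a call that ended without NT replicate 3 (0.16, adjusted p = 0.11) or KD2 replicate 2 or 3 (0.19 and 0.19, adjusted p = 0.091 and 0.086), in a fit of only those groups (0.20, adjusted p = 0.10) and with no filter on low counts (0.21, adjusted p = 0.056). None of these 5 genes was called in KDR against KD2 by edgeR, where the values ran from -0.57 for EME1 to 0.12 for FAN1 (1 had an unadjusted p under 0.05). Of the 5, 4 were higher in KDR than in NT, where 13% of all genes were higher. The exception was EME1 (0.53, 95% interval 0.027 to 1.02, adjusted p = 0.11). Without NT replicate 1, EME1 was called there too (0.78, adjusted p = 0.029), and without any 1 of the NT libraries it was called lower in KDR than in KD2 (-0.57 to -0.58). The call of SLX4 in KDR over NT (0.26 ± 0.092 SE, adjusted p = 0.042) ended without NT replicate 3 (0.15, adjusted p = 0.24), without KD2 replicate 1 or 2, or without any 1 of the KD1 or KDR libraries. It ended too with no filter on low counts (0.26, adjusted p = 0.052) and in a fit of only those groups (0.25, adjusted p = 0.11).

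In the Fanconi core complex with UBE2T, 5 of 10 genes were higher in KD2 than in NT, 0 were lower, and the median was 0.38. FANCA (chr16:89726683-89816977) is a core subunit. It had 12.0, 13.6 and 9.92 CPM in KD1, 28.9, 23.3 and 27.1 CPM in KD2 and 24.1, 22.5 and 21.3 CPM in KDR, against 11.9, 11.4 and 11.6 CPM in NT. FANCB (chrX:14690388-14873255) is the core subunit encoded on the X chromosome. It had 0.991, 0.998 and 1.43 CPM in KD1, 3.38, 4.51 and 3.38 CPM in KD2 and 3.71, 3.03 and 3.15 CPM in KDR, against 0.714, 0.694 and 1.11 CPM in NT. Its lowest count was the lowest of the 48 genes. FANCG (chr9:35073835-35080004) is the core subunit that binds FANCA. It had 10.7, 12.2 and 10.0 CPM in KD1, 21.4, 21.1 and 22.4 CPM in KD2 and 16.7, 17.9 and 14.2 CPM in KDR, against 11.9, 14.4 and 11.0 CPM in NT. KD2 lay above NT in every library for these 3, by 1.19 ± 0.12 (SE, adjusted p = 2.2e-08) for FANCA, 2.17 ± 0.28 (SE, adjusted p = 1.2e-06) for FANCB and 0.80 ± 0.12 (SE, adjusted p = 1.2e-05) for FANCG.

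FANCA and FANCB were not called in KDR against KD2, -0.22 (95% interval -0.45 to 0.0054, adjusted p = 0.13) and -0.19 (95% interval -0.69 to 0.32, adjusted p = 0.61). In KDR both stood above NT, by 0.96 ± 0.12 (SE, adjusted p = 1.1e-06) and 1.98 ± 0.28 (SE, adjusted p = 7.9e-06). FANCG was lower in KDR than in KD2 (-0.41 ± 0.12 SE, adjusted p = 0.0094), a call that ended without KDR replicate 3 (-0.33, adjusted p = 0.067). UBE2T (chr1:202331544-202341984) is the conjugating enzyme of the core complex. It had 7.64, 8.03 and 8.12 CPM in KD1, 16.3, 16.1 and 15.7 CPM in KD2 and 11.3, 11.5 and 9.25 CPM in KDR, against 9.32, 9.25 and 7.62 CPM in NT. It rose by 0.88 ± 0.12 (SE, adjusted p = 4.7e-06) in KD2 over NT and was lower in KDR than in KD2 (-0.59 ± 0.12 SE, adjusted p = 0.00058). In KDR against NT it was not called (0.29, 95% interval 0.035 to 0.55, adjusted p = 0.087), and without KDR replicate 3 it was (0.38, adjusted p = 0.043). FANCM, the motor protein that anchors the complex on DNA, rose by 0.62 ± 0.16 (SE, adjusted p = 0.0035) in KD2 over NT.

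FANCC, FANCE, FANCF, FANCL and FAAP24 were not called in KD2 against NT, with log2 fold changes from -0.24 for FANCL to 0.14 for FANCC. FANCL (chr2:58159243-58241410) is the ubiquitin ligase subunit. It had 35.6, 45.3 and 40.7 CPM in KD1, 30.3, 27.7 and 31.4 CPM in KD2 and 33.6, 38.3 and 36.7 CPM in KDR, against 35.5, 28.4 and 41.8 CPM in NT. Its NT replicate 2 was low, as for RMI1, and without that library FANCL was lower in KD2 than in NT (-0.38, adjusted p = 0.00096), as was FANCF (-0.25, adjusted p = 0.040). Against KD1, with all libraries in the fit, FANCL was lower in KD2 (-0.44 ± 0.11 SE, adjusted p = 0.0035). RMI1, FANCL and FANCF are named here after their values were seen.

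All 3 genes of the FANCD2 and FANCI pair with its protease were higher in KD2 than in NT, with a median of 1.21. FANCD2 (chr3:10026370-10101932) is the subunit whose ubiquitin marks a stalled fork. It had 14.0, 12.7 and 13.7 CPM in KD1, 30.3, 31.3 and 32.9 CPM in KD2 and 20.3, 21.2 and 18.5 CPM in KDR, against 13.2, 13.3 and 14.3 CPM in NT. FANCI (chr15:89243945-89317261) is its partner. It had 21.2, 21.8 and 23.7 CPM in KD1, 47.8, 45.6 and 44.9 CPM in KD2 and 37.4, 35.7 and 36.0 CPM in KDR, against 20.1, 18.5 and 19.6 CPM in NT. USP1 (chr1:62436297-62451804) is the protease that removes ubiquitin from both. It had 73.9, 73.4 and 70.7 CPM in KD1, 85.8, 89.0 and 81.7 CPM in KD2 and 75.7, 75.2 and 78.8 CPM in KDR, against 74.1, 51.2 and 75.1 CPM in NT. FANCD2 and FANCI both passed a 2-fold rise in KD2 over NT, by 1.21 ± 0.094 (SE, adjusted p = 5.6e-10) and 1.25 ± 0.081 (SE, adjusted p = 2.5e-11) on the log2 scale. USP1 rose by 0.36 ± 0.10 (SE, adjusted p = 0.0057), and by 0.20 (adjusted p = 0.0059) without NT replicate 2, its lowest library. KDR lay between KD2 and NT for FANCD2 and FANCI, with KDR minus KD2 at -0.65 ± 0.092 (SE, adjusted p = 6.7e-06) and -0.34 ± 0.078 (SE, adjusted p = 0.0015) and KDR minus NT at 0.56 ± 0.10 (SE, adjusted p = 9.4e-05) and 0.90 ± 0.081 (SE, adjusted p = 1.2e-08). USP1 was not called in KDR against KD2 (-0.16, 95% interval -0.36 to 0.041, adjusted p = 0.22) or NT (0.20, 95% interval -0.0051 to 0.40, adjusted p = 0.14). The first difference was called without NT replicate 2 (-0.17, adjusted p = 0.0084) and the second without NT replicate 3 (0.28, adjusted p = 0.043). KDR minus NT was 0.030 for USP1 (adjusted p = 0.75) without NT replicate 2.

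**Figure D3:**
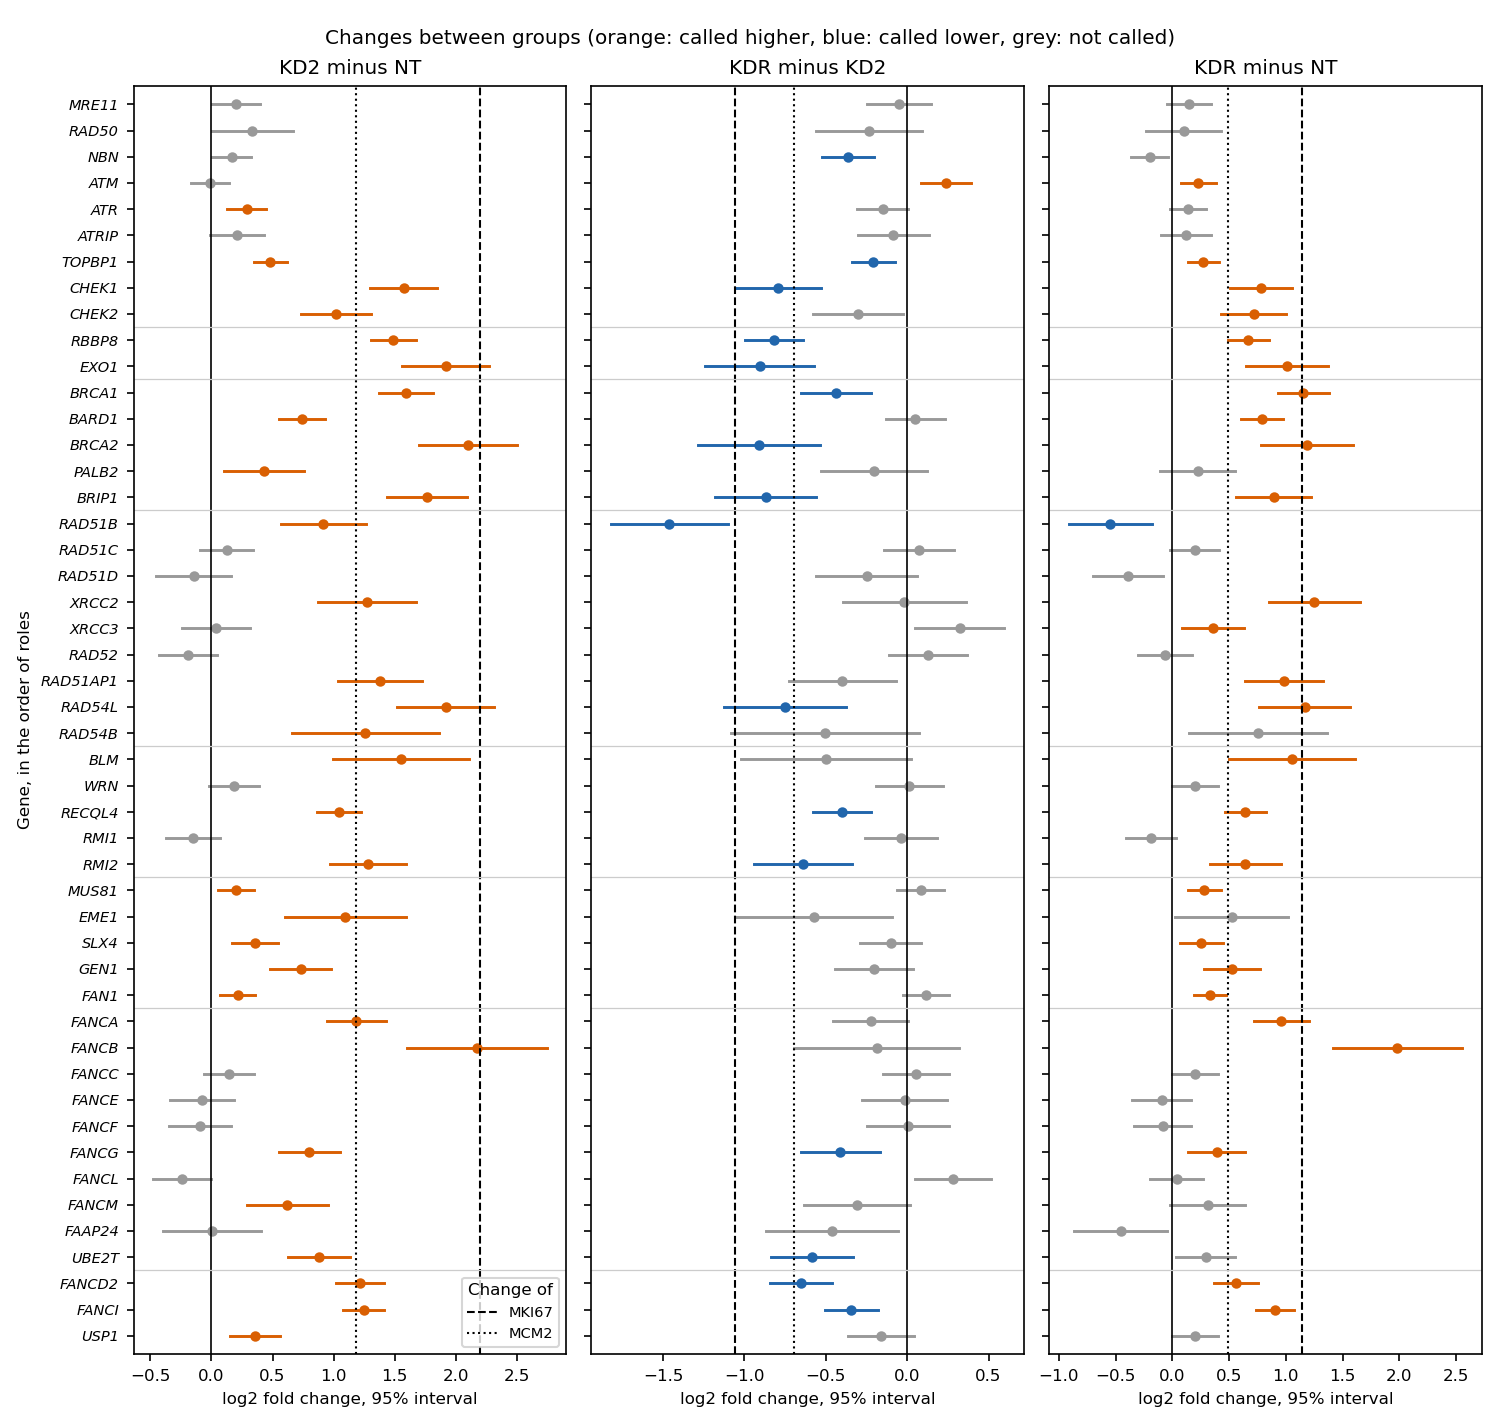
Log2 fold change of each of the 48 genes with its 95% interval, for KD2 minus NT, KDR minus KD2 and KDR minus NT, by role, with called genes in colour and others in grey. The KD2 minus NT values run from -0.24 for FANCL to 2.17 for FANCB, and the KDR minus KD2 values from -1.46 for RAD51B to 0.32 for XRCC3.

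Other genes of both pathways, outside the 48, are those of lists chosen by function. Of 32 further recombination and Fanconi genes, 31 passed the filter (SLX1A did not). Of these 31, 12 were higher in KD2 than in NT and 1 was lower (median 0.15), where 17.8% of all genes were higher and 18.2% lower. POLQ, the polymerase of an alternative joining pathway, rose by 1.89 ± 0.21 (SE, adjusted p = 1.6e-07). RFWD3, a ubiquitin ligase of crosslink repair, rose by 0.66 ± 0.072 (SE, adjusted p = 1.3e-07) and INTS3, a scaffold of a single-strand DNA binding complex, by 0.43 ± 0.059 (SE, adjusted p = 3.4e-06). SEM1, a small partner of BRCA2 that is also a proteasome subunit, had 117, 111 and 106 CPM in KD1, 70.7, 74.6 and 79.4 CPM in KD2 and 123, 124 and 130.2 CPM in KDR, against 108, 119 and 118 CPM in NT. It fell in KD2. KD2 minus NT was -0.62 ± 0.066 (SE, adjusted p = 8.1e-08) for SEM1 and KDR minus KD2 was 0.75 ± 0.065 (SE, adjusted p = 5.2e-09). In KDR against KD2, 5 of the 31 genes were higher and 4 lower, near the shares of all genes (15.3% higher and 17.1% lower). In KDR against NT, 11 were higher and 0 lower, where 13% of all genes were higher and 14.5% lower.

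The 53BP1 and shieldin complexes protect broken ends from resection, and the BRCA1-A complex holds BRCA1 away. The list of these genes also holds genes of the marked chromatin at breaks, such as MDC1 and H2AX, which do neither themselves. Of the 16 genes of the list, 6 were higher in KD2 than in NT and 0 lower (median 0.17), where 17.8% of all genes were higher and 18.2% lower. MDC1, the scaffold on marked chromatin, rose by 1.03 ± 0.10 (SE, adjusted p = 2.2e-08) and H2AX, the histone that is marked at breaks, by 0.70 ± 0.071 (SE, adjusted p = 4.7e-08). RIF1, an effector of 53BP1, rose by 0.45 ± 0.11 (SE, adjusted p = 0.0022) and PAXIP1, an adaptor in the same response, by 0.27 ± 0.088 (SE, adjusted p = 0.021). The PAXIP1 call ended without NT replicate 3 (0.23, adjusted p = 0.084), KD2 replicate 1 (0.24, adjusted p = 0.081) or KD2 replicate 2 (0.23, adjusted p = 0.092). In a fit of only those groups it ended too (0.26, adjusted p = 0.061). In KDR against KD2, 4 of the 16 were lower and 1 higher, where 17.1% of all genes were lower and 15.3% higher. In KDR against NT, 4 were higher and 0 lower, where 13% of all genes were higher and 14.5% lower.

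Replication licensing and mitosis genes were measured beside the 48. All 18 replication licensing genes were higher in KD2 than in NT (median 1.17), and 14 were lower in KDR than in KD2 (median -0.47). All 20 mitosis genes were higher in KD2 than in NT (median 1.80), lower in KDR than in KD2 (median -1.02) and higher in KDR than in NT (median 0.81). Of all genes, 17.8%, 17.1% and 13% were called in these directions, in that order. MKI67 had 20.2, 20.3 and 23.8 CPM in KD1, 97.7, 103 and 99.2 CPM in KD2 and 48.1, 48.3 and 47.5 CPM in KDR, against 20.7, 21.8 and 22.9 CPM in NT. Its KD2 libraries were the highest and its KDR libraries lay between those of KD2 and NT. MCM2 had 12.0, 11.7 and 10.5 CPM in KD1, 28.4, 29.3 and 28.6 CPM in KD2 and 18.0, 17.7 and 17.7 CPM in KDR, against 11.8, 14.5 and 11.7 CPM in NT, in the same order. MKI67 differed by 2.20 ± 0.079 in KD2 over NT, -1.06 ± 0.075 in KDR over KD2 and 1.14 ± 0.079 in KDR over NT. MCM2 differed by 1.18 ± 0.10, -0.69 ± 0.10 and 0.49 ± 0.10, all called. The licensing factors CDT1, CDC6, MCM5 and MCM4 rose in KD2 over NT by 1.90, 1.69, 1.16 and 0.83 on the log2 scale, and the mitosis genes TOP2A, TPX2 and CDK1 by 2.15, 1.87 and 1.84.

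Whether each of the 48 genes changed as much as MKI67 or MCM2 was tested on its log2 CPM minus that of the comparison gene in the same library, with limma, across all genes. Relative to MKI67, 44 of the 48 genes were lower in KD2 than in NT, 0 were higher and 4 were not called, where 96% of all genes were lower relative to MKI67 and 0.377% higher. The 4 were BRCA2 at -0.041 (95% interval -0.40 to 0.32), FANCB at -0.10 (95% interval -0.69 to 0.49), RAD54L at -0.26 (95% interval -0.70 to 0.18) and EXO1 at -0.28 (95% interval -0.67 to 0.10). BRCA1 rose less than MKI67, at -0.59 (95% interval -0.85 to -0.33), as did FANCD2, at -0.99 (95% interval -1.24 to -0.73). The lowest value of the 48 was that of FANCL, -2.42 (95% interval -2.66 to -2.18).

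Relative to MCM2, 8 of the 48 genes were higher in KD2 than in NT, 27 were lower and 13 were not called, where 1.65% of all genes were higher relative to MCM2 and 82% lower. The 8 were BRCA2 at 0.97 (95% interval 0.45 to 1.49), FANCB at 0.91 (95% interval 0.31 to 1.51), RAD54L at 0.75 (95% interval 0.29 to 1.21), EXO1 at 0.72 (95% interval 0.29 to 1.16), BRIP1 at 0.58 (95% interval 0.16 to 0.99), BRCA1 at 0.42 (95% interval 0.076 to 0.76), CHEK1 at 0.38 (95% interval 0.048 to 0.71) and RBBP8 at 0.30 (95% interval 0.020 to 0.58). FANCD2 and FANCI differed from MCM2 by 0.023 (95% interval -0.24 to 0.28) and 0.057 (95% interval -0.20 to 0.31), and neither was called. In the fit without NT replicate 2, 4 were higher (RAD54L, FANCB, BRCA2 and EXO1, at 0.57 to 0.70) and 29 lower, where 84.1% of all genes were called. The noise of MCM2 is common to all these tests, and MCM2 was highest in NT replicate 2 within NT.

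**Figure D4:**
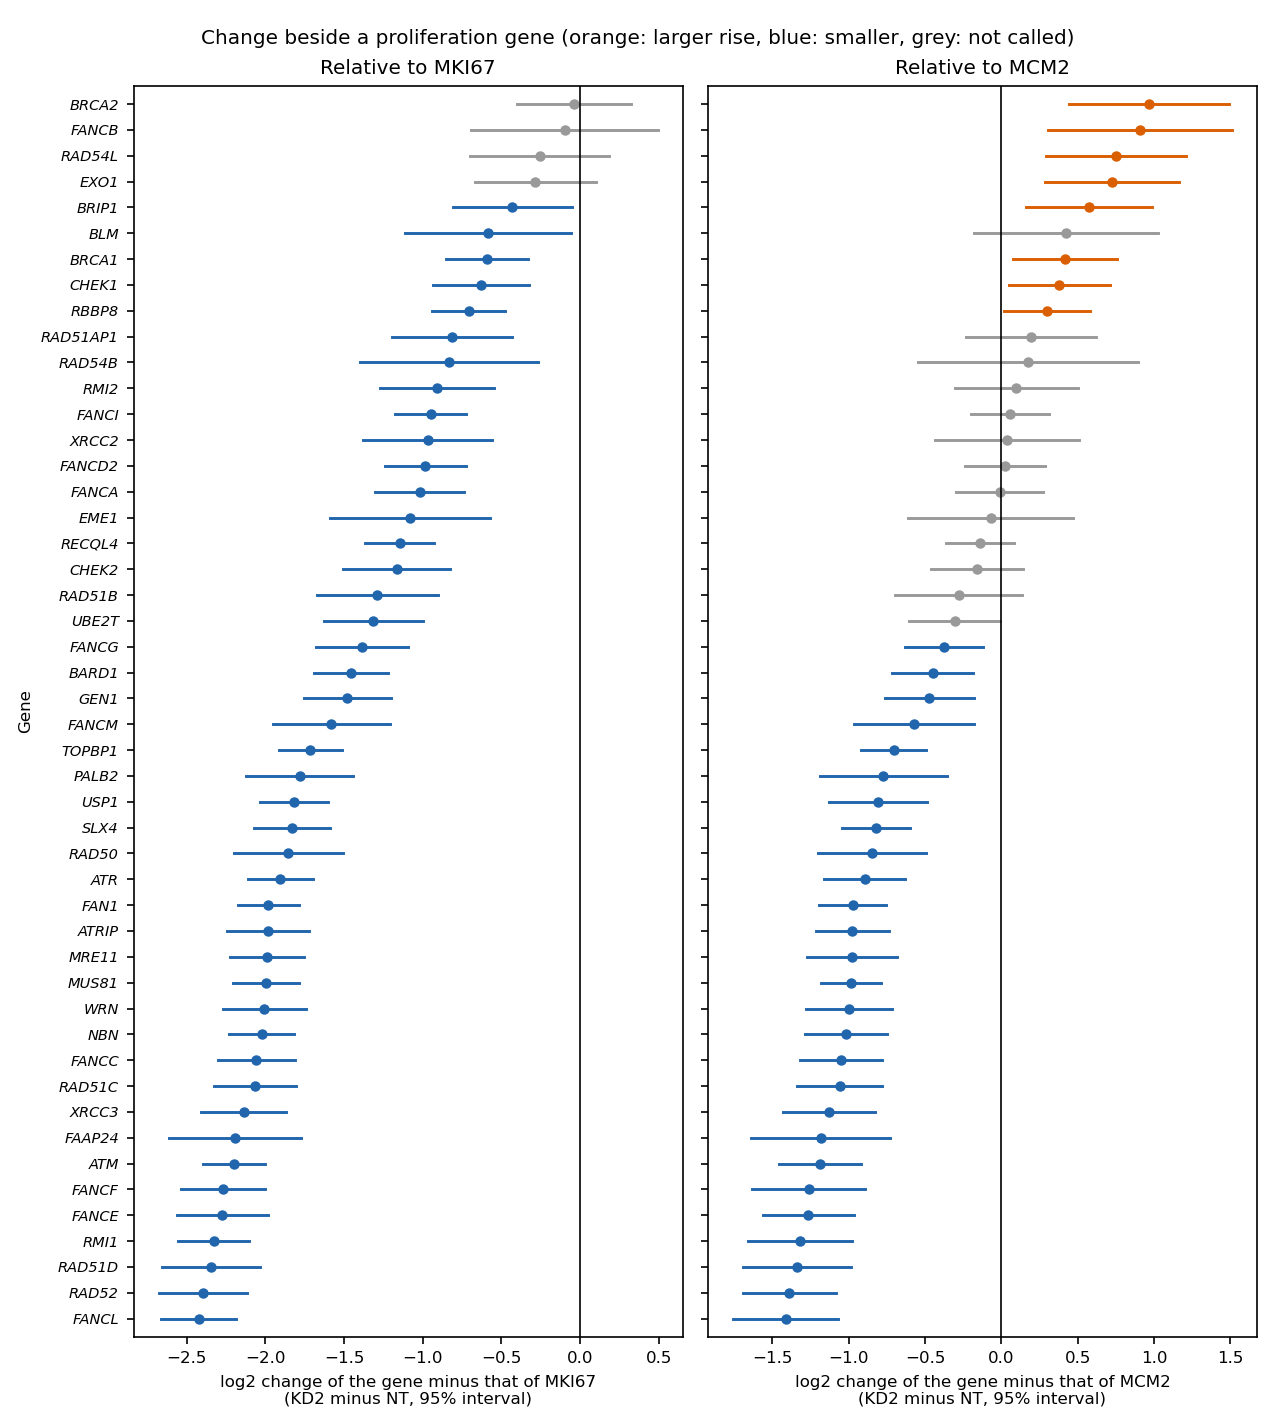
Change of each of the 48 genes in KD2 minus NT beside that of MKI67 (left) or MCM2 (right), as the log2 change of the gene minus that of the comparison gene with its 95% interval, where orange is a larger rise than the comparison gene, blue a smaller one and grey not called. Beside MKI67, 44 genes are blue and 4 grey, and beside MCM2, 8 are orange, 27 blue and 13 grey, with BRCA2 and FANCB at the top and FANCL at the bottom of both panels.

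In KDR against KD2, 40 of the 48 genes were higher relative to MKI67, RAD51B was lower, at -0.42 (95% interval -0.81 to -0.036), and 7 were not called, where 83.2% of all genes were higher and 1.63% lower. The 7 were BRCA2, BRIP1, CHEK1, EME1, EXO1, RAD54B and RAD54L. Relative to MCM2, 29 were higher, RAD51B was lower (-0.79, 95% interval -1.21 to -0.37) and 18 were not called, against 69.6% and 2.75% of all genes. With all libraries, RAD51B was the 1 gene of the 48 called as falling more than both comparison genes in KDR against KD2. The call relative to MKI67 ended without KD2 replicate 2, KD2 replicate 3, KDR replicate 1 or KDR replicate 3. In those fits 0 of the 48 were lower, where 79.1% to 80.2% of all genes were called in either direction. Relative to MCM2, 1 of the 48 was lower in every fit that left out 1 library.

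In KDR against NT, FANCB was higher relative to MKI67 (0.78, 95% interval 0.19 to 1.37), 36 of the 48 genes were lower and 11 were not called, where 0.883% of all genes were higher and 78.8% lower. BRCA1 and BRCA2 were among the 11, at 0.031 (95% interval -0.23 to 0.29) and 0.12 (95% interval -0.25 to 0.48). Relative to MCM2, 9 were higher, 12 lower and 27 not called, where 2.73% of all genes were higher and 53.2% lower. The 9 were FANCB (1.42, 95% interval 0.82 to 2.03), BRCA2, XRCC2, RAD54L, BRCA1, EXO1, RAD51AP1, FANCA and FANCI. Without NT replicate 2, 7 were higher and 24 lower relative to MCM2, where 61.4% of all genes were called, against 55.9% with all libraries. Relative to MKI67, 0 were then higher and 37 lower, where 77.1% of all genes were called.

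Libraries of 1 group offer a view of the relation that the group means do not set. MKI67 varied little within groups, with an SD of 0.13 in KD1, 0.040 in KD2, 0.012 in KDR and 0.074 in NT on the log2 CPM scale. In an edgeR fit of the 4 groups plus the log2 CPM of MKI67, 0 of the 48 genes were called for moving with MKI67, as were 0% of all genes. At an unadjusted p under 0.05 CHEK2 and FANCA were found, beside 2.21% of all genes. For MCM2, 8 of the 48 genes were called, and all 8 moved against MCM2 within groups (NBN, ATM, ATR, BRCA1, RMI1, FANCF, FANCL and USP1), where 7.04% of all genes moved against it and 6.05% with it. Without NT replicate 2, which has the highest MCM2 level of NT, 0 of the 48 genes and 5 genes of the whole table were called. A correlation across the 12 libraries would mix the differences between groups with the relation within groups, so none is given.

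With MKI67 as a covariate beside the groups, edgeR called 0 of the 48 genes in KD2 against NT (0.0103% of all genes), and the median SE of their log2 fold changes was 1.46, against 0.12 without it. At that precision the change of the groups and the change of MKI67 cannot be told apart. With MCM2 as the covariate, 16 of the 48 were higher in KD2 than in NT and 0 lower (18.8% of all genes called), and the median SE was 0.58. Such fits use the slope on MCM2 within groups, for which 0 of the 48 genes were called without NT replicate 2. The comparisons with MCM2 as a covariate were not repeated without that library, so how far their calls rest on it is not known. Of these 16, 11 were also called without the covariate, and NBN, ATM, RMI1, FANCF and FANCL were not. In KDR against KD2, KDR against NT and KD2 against KD1, MKI67 as a covariate left 0 of the 48 genes called, where 0.289%, 0.0155% and 0% of all genes were called. With MCM2 as a covariate, 12, 22 and 15 of the 48 were called in these comparisons, where 20.2%, 23.5% and 15.5% of all genes were called. Of these, 7, 16 and 10 had the same call without the covariate, and RMI1 in KD2 against KD1 had the opposite one.

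The start regions are shown for 5 genes picked because they hold the word TTCCCGC or TTGGCGC on either strand. They are the 4 such genes with the largest rises and FANCL, which had the lowest log2 fold change. FANCB, BRCA2, EXO1 and CHEK1, which also rose by at least as much as BLM, hold none of these words. The sequences are RefSeq promoter windows of GRCh38.p14, 250 bases before to 50 after the annotated start, each read on the strand of its gene. Capitals mark exact matches to the words TTCCCGC or TTGGCGC, which resemble binding sites of E2F factors, or to the same words read on the other strand (GCGGGAA and GCGCCAA). The windows lie at chr1:46247438-46247737 on the plus strand for RAD54L, chr17:61863479-61863778 on the minus strand for BRIP1, chr17:43125315-43125614 on the minus strand for BRCA1, chr15:90717096-90717395 on the plus strand for BLM and chr2:58241276-58241575 on the minus strand for FANCL.
RAD54L: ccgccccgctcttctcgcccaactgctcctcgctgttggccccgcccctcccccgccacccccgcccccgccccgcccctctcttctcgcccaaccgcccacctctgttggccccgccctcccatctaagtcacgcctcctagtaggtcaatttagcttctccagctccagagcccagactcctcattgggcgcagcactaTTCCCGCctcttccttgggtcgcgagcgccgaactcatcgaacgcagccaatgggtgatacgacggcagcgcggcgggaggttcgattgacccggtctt
BRIP1: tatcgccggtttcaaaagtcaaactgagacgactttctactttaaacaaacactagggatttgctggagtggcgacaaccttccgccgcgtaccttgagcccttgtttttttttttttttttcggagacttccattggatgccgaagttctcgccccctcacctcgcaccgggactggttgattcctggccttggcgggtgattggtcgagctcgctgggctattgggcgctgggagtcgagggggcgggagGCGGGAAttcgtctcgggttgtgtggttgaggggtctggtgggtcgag
BRCA1: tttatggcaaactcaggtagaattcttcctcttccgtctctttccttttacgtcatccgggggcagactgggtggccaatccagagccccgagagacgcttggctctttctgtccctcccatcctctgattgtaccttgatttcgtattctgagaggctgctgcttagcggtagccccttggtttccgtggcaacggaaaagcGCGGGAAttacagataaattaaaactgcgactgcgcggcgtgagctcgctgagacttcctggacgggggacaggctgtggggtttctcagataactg
BLM: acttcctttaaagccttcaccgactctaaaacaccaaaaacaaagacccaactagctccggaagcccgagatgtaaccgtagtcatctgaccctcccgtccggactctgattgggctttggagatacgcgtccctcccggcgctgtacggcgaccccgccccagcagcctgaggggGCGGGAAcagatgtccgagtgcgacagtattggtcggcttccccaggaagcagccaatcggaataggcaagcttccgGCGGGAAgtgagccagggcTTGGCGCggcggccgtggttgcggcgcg
FANCL: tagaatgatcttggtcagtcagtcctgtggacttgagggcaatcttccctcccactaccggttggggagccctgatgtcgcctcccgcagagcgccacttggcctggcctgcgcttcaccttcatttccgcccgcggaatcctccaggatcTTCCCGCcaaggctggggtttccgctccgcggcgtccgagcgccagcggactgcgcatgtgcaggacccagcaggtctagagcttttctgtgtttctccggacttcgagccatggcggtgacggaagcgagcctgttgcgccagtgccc

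Counted from 0 at the annotated start, the first base of the word lies at -49 in RAD54L, 2 in BRIP1, -47 in BRCA1 and -99 in FANCL, and BLM holds 3 such words, at -74, 3 and 22. A promoter window was at hand for 42 of the 48 genes, and 20 of the 42 (47.6%) held at least 1 such word, beside 11% of 27305 genes and 9.23% of 35116 windows of the same length. Among the 28 genes called higher in KD2 than in NT with a window, 13 (46.4%) held it, and among the 14 not called, 7 (50%) did. The words TTTGAA or TTCGAA, found in promoters of mitosis genes, were held by 7 of the 42 (16.7%), beside 19.5% of all genes, and CCAAT by 21 (50%), beside 39.7% of all genes. Both strands were read. An ATTGG that runs on as CGC counts for CCAAT and for TTGGCGC. The median GC content was 64.3% in the windows of the 42 genes and 58.7% in all windows, and its part in these shares was not tested. A match is a run of letters and not a measured binding site.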

How the data were processed

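Libraries were made from total RNA with poly-A selection and sequenced as read pairs, per the labels. The authors deposited 1 table of raw counts per library, by gene from featureCounts 1.6.4 and the exons of Ensembl release 111 on GRCh38, per the file headers. Those headers set no option for strand or pairs and none to count reads that map to many places, so overlapping genes and near-identical copies are measured less surely. With no option for pairs, both reads of a pair may be counted, so the counts may overstate the number of pairs. Of the counts from 1 to 20, 40.2% to 46.4% were odd, by library. FastQC, cutadapt and HISAT2 are named in the submitters' processing notes, with versions not given in the sources used here.

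Counts were tested with edgeR 4.0.16 in R 4.3.3: filterByExpr (minimum count 10) by group, TMM, and 1 quasi-likelihood fit of 4 groups over 12 libraries, with Benjamini-Hochberg adjusted p under 0.05 over all 19373 genes. Ratios to MKI67 and MCM2 were tested with limma 3.58.1 (trend) on log2 CPM values (prior count 2), and movement within groups with edgeR's test of the log2 CPM of either gene beside the groups. The scripts were tested on simulated data. The 48 genes and the other lists were chosen with earlier results of these data known.

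Genes named with values in every library are up to 4 of each role list by adjusted p in KD2 minus NT, any called lower there, and any with an opposite call in KDR minus NT; DHODH, MKI67 and MCM2 are always given. Genes named outside this rule were chosen after their values were seen: NBN, ATM, RMI1, FANCL and FANCF for their calls, and the remaining members for completeness. Intervals are at 95% and cover the spread between libraries. No pairing of libraries by replicate number was evident, though 3 libraries per group cannot exclude it. Of the 18 pairs that share a number, deviations from the group means correlated over 0.1 in 1 (range -0.16 to 0.25, over the 11201 genes whose mean reached 5 CPM). Alternatives were DESeq2 1.42.0, its size factors, other filters on low counts, a prior count of 0.5, limma, fits of the compared groups alone, a block for the replicate number, MKI67 or MCM2 as a covariate, and leaving out each library.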

Additional observations from a re-analysis of the deposited data

Results flagged for a closer look

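The knockdown libraries KD2 and KD1, both labelled as DHODH knockdowns, differed by the edgeR test of that difference. In KD2 minus KD1, 31 of the 48 recombination and Fanconi genes were called, 29 higher and 2 lower, where 17.9% of all genes tested were higher and 17.5% lower. RAD54L had the largest rise, at 2.07 ± 0.20 (SE), and BRCA1 rose by 1.68 ± 0.11. RMI1 and FANCL were lower in KD2 than in KD1, by -0.39 and -0.44 on the log2 scale (edgeR, adjusted p = 0.0060 and 0.0035). RMI1 stood at 49.7 ± 0.745 CPM in KD2 and 65.0 ± 0.809 CPM in KD1, and FANCL at 29.8 ± 1.89 CPM in KD2 and 40.5 ± 4.85 CPM in KD1 (SD, n = 3 each), with no overlap of the libraries for either gene. Over the same libraries MKI67 stood at 97.7, 103 and 99.2 CPM in KD2 and 20.2, 20.3 and 23.8 CPM in KD1. With MKI67 as a covariate, edgeR called 0 of the 48 genes in KD2 minus KD1 (0% of all genes), with a median SE of 1.47. At that precision its part cannot be told apart from the difference between the groups.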

How the results depend on the processing

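Counts of called members kept within 1.5 times of the reported ones under DESeq2, its size factors, both other filters on low counts and a prior count of 0.5. Leaving out 1 library gave 30 to 36 members in KD2 minus NT, 15 to 24 in KDR minus KD2, 22 to 29 in KDR minus NT, 29 to 35 in KD2 minus KD1 and 0 in KD1 minus NT. Of all genes, 29.4% to 37.8%, 25.4% to 39.3%, 20.9% to 30.8%, 28.8% to 41% and 0% were then called, in that order. For the ratio to MKI67 the ranges of members were 42 to 44, 37 to 42 and 34 to 38 in KD2 minus NT, KDR minus KD2 and KDR minus NT, for the ratio to MCM2 32 to 36, 25 to 33 and 16 to 31, and within groups 0 for MKI67 and 0 to 11 for MCM2. Of all genes, 93.8% to 95.7%, 79.1% to 84.2% and 74.4% to 77.9% were called for the ratio to MKI67. For the ratio to MCM2 the shares were 77.6% to 84.1%, 64.9% to 74.8% and 46.8% to 61.4%. Within groups they were 0% to 0.00499% for MKI67 and 0.0249% to 18.2% for MCM2. A fit of only the groups compared called 27 members in KDR minus KD2, against 17, and 44.3% of all genes, against 32.4%. With the replicate number as a block, 32 members were called in KD2 minus NT, 17 in KDR minus KD2, 29 in KDR minus NT, 31 in KD2 minus KD1 and 0 in KD1 minus NT. Of all genes, 35.5%, 32%, 26.9%, 35% and 0% were called there. The block took the members that move with MCM2 within groups to 3, against 8, where 8.14% of all genes were called, against 13.1%. Of the 12 libraries, 5 correlated best with a library of their own number. MKI67 as a covariate left 0 members called in KD2 minus NT, KDR minus KD2, KDR minus NT and KD2 minus KD1, and with MCM2 as a covariate 16 were called in KD2 minus NT and 15 in KD2 minus KD1, of which 11 and 10 had the same call without it. Neither gene can be given a value with itself as covariate.

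Among named results called in either fit, signs turned only with a covariate. Values not called turned too: FANCL in KDR minus NT was 0.039 with all libraries and -0.10 without NT replicate 2. With MKI67, these were in KD2 minus NT CHEK1 (-0.17), ATR (-0.21), EXO1 (-1.44), RECQL4 (-0.13), RMI2 (-1.22), BLM (-2.70), GEN1 (-0.77), EME1 (-1.01), FAN1 (-0.17), PALB2 (-2.63) and FANCB (-4.18), in KDR minus KD2 CHEK1 (0.048), EXO1 (0.71), RECQL4 (0.17), RMI2 (0.57), FANCI (0.018) and MCM5 (0.12), and in KDR minus NT CHEK1 (-0.12), EXO1 (-0.73), RMI2 (-0.65), BLM (-1.14), GEN1 (-0.25), XRCC3 (-1.11) and FANCB (-1.30), none of them called. With MCM2, these were in KD2 minus NT DHODH (-1.64), SLX4 (-0.23), FANCG (-0.46), MUS81 (-0.045), ATM (1.05), RMI1 (1.43), FANCL (1.27) and FANCF (1.62), in KDR minus KD2 FANCG (0.33), ATM (-0.37) and FANCF (-0.98), in KDR minus NT FANCG (-0.13) and FANCF (0.64), and in KD2 minus KD1 RMI1 (1.36) and FANCL (1.24). Of these 15, ATM, RMI1, FANCL, FANCF and DHODH in KD2 minus NT, FANCF in KDR minus KD2 and KDR minus NT and RMI1 in KD2 minus KD1 had adjusted p from 0.0094 to 0.048 with the covariate, and the other 7 were not called. The fits with MCM2 use its slope within groups, for which 0 members were called without NT replicate 2. They were not repeated without that library, and the cause of the turned signs was not tested. Depth limits FANCB and RAD54B most, whose lowest counts in a library were 21 and 24.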
